A study of Mus musculus with 12 samples.

Results

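The genes described here are 41 interferon-response genes, chosen by name from the 55487 genes of a table of CPM values (read counts scaled to a total of 1000000 per library), and all 41 were found in it. They are genes that mouse cells raise after an interferon signal, together with both chains of the type I interferon receptor. Their levels were compared in 4 populations of cancer-associated fibroblasts (CAFs), the connective tissue cells of a tumour, sorted by surface proteins. The tumours came from 3 untreated mice aged 10 weeks, of the FVB MMTV-PyMT strain and genotype, in which a mouse mammary tumour virus promoter expresses polyoma middle T, an oncogene, in the mammary epithelium and tumours arise spontaneously. Every mouse, numbered 27, 30 and 31, carried the transgene and gave 1 library of each population, 12 libraries in all, and no tumour-free or interferon-treated group was analysed here. All populations were sorted as live cells that lacked CD45, CD31 and EPCAM, the surface marks of leukocytes, endothelium and epithelium, and that carried PDGFRb. The icaf population was in addition Ly6C+. The m2cafneg and m2cafpos populations were Ly6C-, CD146- and PDGFRa+, and were NCAM- and NCAM+ respectively. The vcaf population was Ly6C-, CD146+ and PDGFRa-.

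Type I interferons bind a receptor of the chains IFNAR1 and IFNAR2, whose kinases phosphorylate STAT2. With IRF9, STAT2 is part of a complex that binds the interferon-stimulated response element (ISRE) in promoters of antiviral genes, while interferon gamma acts through the gamma-activated site (GAS) and raises genes such as Irf1 and the GTPase families. In tumours, fibroblasts are among the cells known to carry such a programme.

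Promoters of many members, though not all, hold these elements, and stretches of 8 promoters are printed to show the letters through which the pathway is known to act. Of the 41 members, 33 had a promoter window in RefSeq (build GRCm38.p6, 250 bases before to 50 bases after the start). The ISRE core, searched on both strands as GAAA, any 2 bases (NN) and GAAA, was in 18 of these 33 windows (54.5%), against 3.99% of the 27025 genes that have a window. The GAS, searched as TTCNNNGAA, which reads alike on both strands, was in 12 of the 33 (36.4%), against 9.55%. The motifs can overlap each other, and a match is a description of letters, not a bound site. Starts are those of RefSeq, and the motif printed for Gbp2 lies just after the gene start in GENCODE M21 (142620602). In each line the motif is in capitals, 5′ to 3′ on the strand of the gene, with the ISRE in the first 7 and the GAS in Irf1:
Ifit1, chr19:34640765-34640833, plus strand, 124 to 56 bases before the start: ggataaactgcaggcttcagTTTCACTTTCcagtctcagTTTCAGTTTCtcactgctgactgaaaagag
Ifit3, chr19:34583353-34583436, plus strand, 176 to 93 bases before the start: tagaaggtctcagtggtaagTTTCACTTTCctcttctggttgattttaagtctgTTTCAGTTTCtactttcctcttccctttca
Oas1a, chr5:120907526-120907565, minus strand, 40 to 1 bases before the start: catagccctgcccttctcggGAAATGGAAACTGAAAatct
Bst2, chr8:71537567-71537622, minus strand, 150 to 95 bases before the start: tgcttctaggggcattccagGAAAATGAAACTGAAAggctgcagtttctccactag
Isg15, chr4:156200855-156200916, minus strand, 98 to 37 bases before the start: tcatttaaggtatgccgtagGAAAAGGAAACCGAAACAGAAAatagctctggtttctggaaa
Igtp, chr11:58199502-58199551, plus strand, 54 to 5 bases before the start: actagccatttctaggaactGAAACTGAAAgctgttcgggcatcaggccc
Gbp2, chr3:142620584-142620633, plus strand, 79 to 30 bases before the start: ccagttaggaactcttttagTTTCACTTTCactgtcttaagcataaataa
Irf1, chr11:53769904-53769952, plus strand, 110 to 62 bases before the start: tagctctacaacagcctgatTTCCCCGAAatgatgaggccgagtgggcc
Ifit1, Ifit3, Oas1a and Bst2 each held 2 matches to the ISRE core in the stretch shown, and Isg15 held 3 that run into each other. Of the 13 members that were higher in icaf than in each other population (named further on), 7 had a window and 5 of those held the ISRE core. Of the other 28 members, 26 had a window and 13 held it.

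Libraries held 43898839 to 55363203 reads, so 1 read was worth 0.0181 to 0.0228 CPM and counting error was small for all but the lowest members. Fibroblast genes were abundant in icaf and both m2caf populations, with a summed level over 12 genes of 83209 to 87614 CPM in icaf, 77829 to 97458 in m2cafneg and 153313 to 160901 in m2cafpos, and were at 10265 to 12687 in vcaf. Pericyte genes summed to 37631 to 59194 CPM in vcaf and to 181 to 636 CPM in the other 3. Epithelial genes were present despite the EPCAM- gate: all 20 listed had a mean above 1 CPM in every population, and they summed to 2876 to 7919 CPM in icaf, 14363 to 31553 in m2cafneg, 2232 to 7757 in m2cafpos and 20769 to 42686 in vcaf. Macrophage and monocyte genes (18 listed) summed to 159 to 327 CPM in icaf, 1071 to 1615 in m2cafneg, 237 to 331 in m2cafpos and 1004 to 2116 in vcaf. For the members themselves 1 library stood apart, the icaf library of mouse 30. The comparison of icaf with the mean of m2cafneg and m2cafpos is given with and without it. So is the count of members higher in icaf than in each other population. Counts of genes higher in icaf in single pairs or in other lists include it.

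Most members differed among the 4 populations: 33 of 41 passed the test (limma on log2(CPM + 1), adjusted p under 0.05), or 80.5%, where 73% of all 15456 tested genes did. The share of members was thus close to that of all genes. Icaf had the highest mean in 29 of 41 members, against 17.2% of all tested genes. Vcaf had the highest mean in 11 members, where it was highest for 62.6% of all genes. M2cafpos was highest for 1 member (9.85% of all genes) and m2cafneg for 0 (10.4% of all genes). These last counts are of group means and carry no test. The 8 members that did not pass the test among populations were Eif2ak2, Ifit3b, Irgm1, Isg15, Oas3, Oasl1, Parp14 and Rsad2. Bulk libraries cannot tell fewer cells of a type from less RNA per cell.

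**Figure D1:**
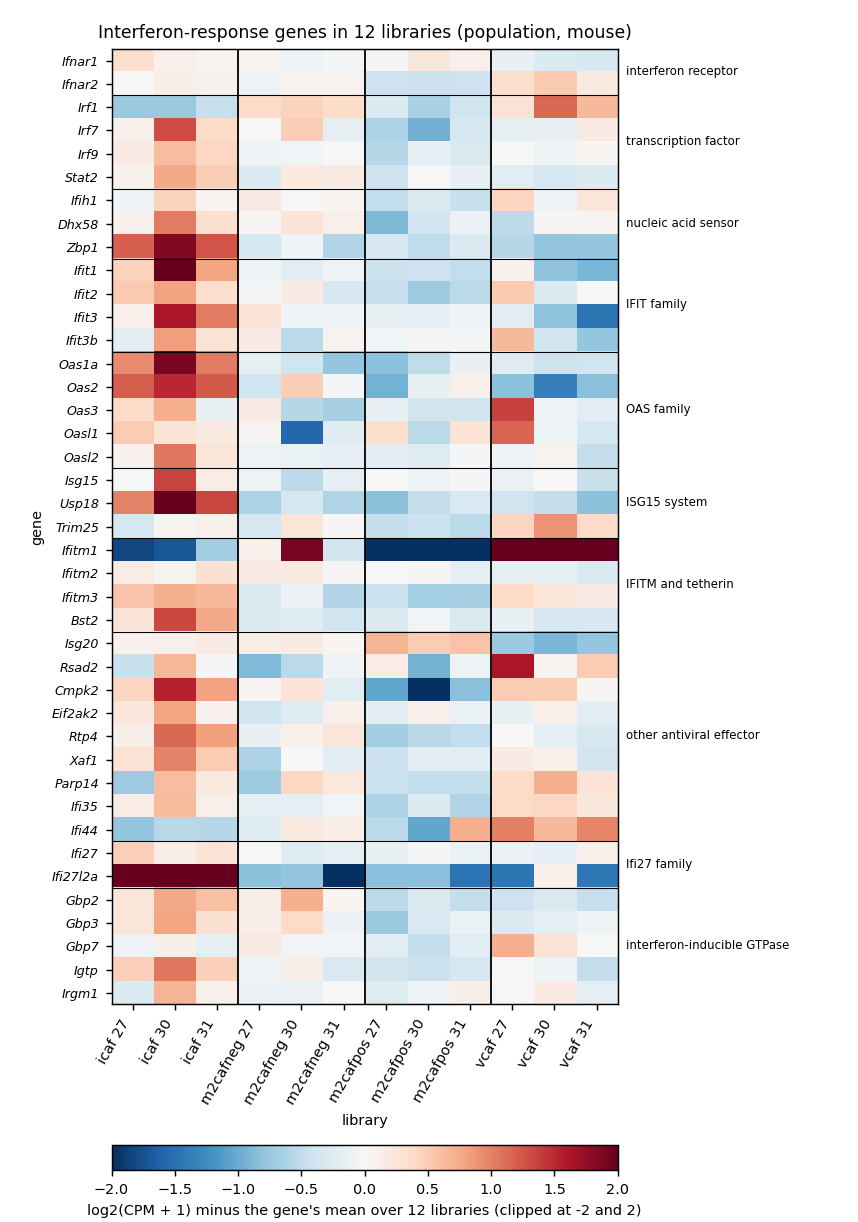
Level of each of the 41 members (rows, by role) in the 12 libraries (columns, by population and mouse), as log2(CPM + 1) minus the gene's mean over the 12 libraries, clipped at -2 and 2. Red cells gather in the icaf columns, most deeply in the column of mouse 30, while Ifitm1 is red in vcaf and Isg20 in m2cafpos.

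Levels differed widely between members. Divided by the length of a gene's joined exons, the icaf level was highest for Ifitm3 at 2159 CPM per kb, followed by Ifitm2 at 545, Ifi27l2a at 268, Ifi27 at 201 and Bst2 at 119.9. The lowest were Oas3 at 0.148, Ifi44 at 0.312 and Rsad2 at 0.414 CPM per kb. Ifitm2, Ifitm3 and Bst2 encode small membrane proteins that hinder the entry or release of enveloped viruses. In vcaf and both m2caf populations, Ifi27l2a stood far lower per length, at 13.7, 9.95 (m2cafneg) and 10.8 (m2cafpos) CPM per kb.

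The Ly6C+ population carried higher levels of most interferon-response genes than the mean of the Ly6C- PDGFRa+ populations. Of 41 members, 24 were higher in icaf than in the mean of m2cafneg and m2cafpos (12.1% of all tested genes were), and 1, Irf1, was lower (14.2% of all genes). The median member was 0.60 higher on the log2(CPM + 1) scale, where the median of all tested genes was -0.01, and 37 of 41 members lay above 0. By role, the higher members were 1 of 2 receptor chains, 3 of 4 transcription factors, 1 of 3 nucleic acid sensors, 3 of 4 IFIT genes, 3 of 5 OAS genes, 1 of 3 genes of the ISG15 system, 2 of 4 IFITM and tetherin genes, 5 of 9 other antiviral effectors, 2 of 2 Ifi27 genes and 3 of 5 interferon-inducible GTPases. Adding the epithelial level (the mean log2(CPM + 1) of the listed epithelial genes) to the fit left 11 higher (5.78% of all genes were then higher). The members left were Bst2, Cmpk2, Ifi27l2a, Ifitm3, Igtp, Irf9, Oas1a, Oas2, Rtp4, Usp18 and Zbp1. Leaving out the icaf library of mouse 30 left 16 of 40 tested members higher (7.72% of all genes), with a median of 0.43, and Irf1 did not pass in either of these fits.

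**Figure D2:**
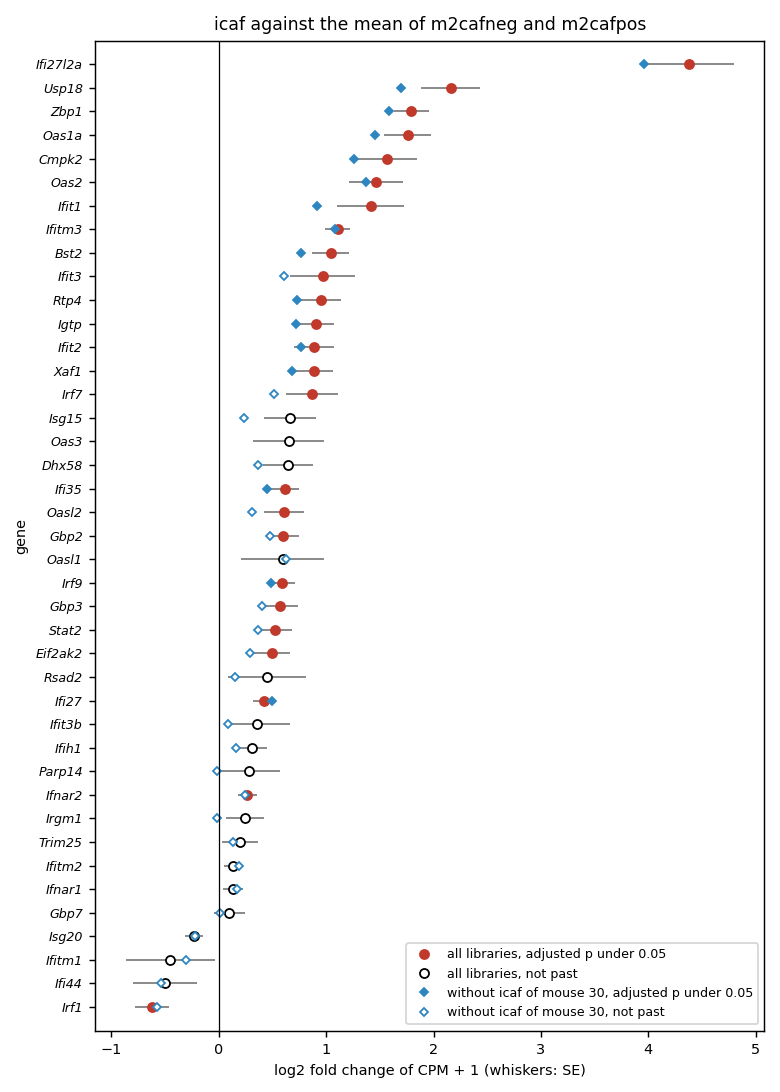
Log2 fold change of CPM + 1 of each member in icaf over the mean of m2cafneg and m2cafpos, with whiskers for the standard error, for all libraries (circles) and without the icaf library of mouse 30 (diamonds), filled where the adjusted p is under 0.05. Ifi27l2a leads at 4.37 and 37 of 41 circles lie right of 0, while most diamonds sit closer to 0 than their circles.

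The Ifi27 family gave the largest difference. Ifi27l2a (ENSMUSG00000079017, chromosome 12, 103442167 to 103443680; positions here and below are of GRCm38 in GENCODE M21) encodes a small interferon-inducible membrane protein. Given here and below for mice 27, 30 and 31 in that order, its levels were 94.7, 202 and 75.7 CPM in icaf, 5.88, 6.16 and 1.79 in m2cafneg, 5.82, 5.82 and 3.39 in m2cafpos and 3.42, 12.1 and 3.51 in vcaf. Every icaf library lay above all 9 others, and the icaf mean was 27.0 times that of m2cafneg, 24.8 times that of m2cafpos and 19.5 times that of vcaf. Against the mean of both m2caf populations the difference was 4.37 in log2(CPM + 1) (SE 0.42, adjusted p = 1.27e-05). Its neighbour Ifi27, on the other strand of the same part of chromosome 12, was higher by only 0.42 (SE 0.10, adjusted p = 0.00831), with icaf at 295 ± 34.6 CPM (SD, n = 3) and the group means of the others between 217 and 230.1 CPM. Without the icaf library of mouse 27, or with the epithelial level in the fit, the call for Ifi27 was lost.

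In the ISG15 system, which attaches the ubiquitin-like protein ISG15 to other proteins, the gene of the enzyme that removes it passed the test in icaf without a block. Usp18 (ENSMUSG00000030107, chromosome 6, 121245906 to 121270917) encodes that protease, which also dampens signalling at IFNAR2. Usp18 measured 38.1, 115 and 48.6 CPM in icaf, 11.8, 14.4 and 12.01 in m2cafneg, 10.1, 13.1 and 14.9 in m2cafpos and 13.9, 13.1 and 10.1 in vcaf. All icaf libraries were above the rest, the icaf library of mouse 30 being the highest by far, and the other 9 libraries overlapped each other. The difference from the m2caf mean was 2.16 in log2(CPM + 1) (SE 0.27, adjusted p = 9.86e-05), and the icaf mean was 5.28 times that of m2cafneg. Isg15 itself measured 23.1, 60.1 and 25.4 CPM in icaf, 21.2, 15.7 and 19.9 in m2cafneg, 22.9, 21.2 and 22.3 in m2cafpos and 20.7, 23.0 and 16.6 in vcaf. Its mouse 30 icaf library was high and the other icaf libraries, at 23.1 and 25.4 CPM, were close to the rest, and the difference of 0.66 did not pass (SE 0.24, adjusted p = 0.0632), but did with the mouse as a block (adjusted p = 0.0447). Trim25, a ligase that also acts in RNA sensing, differed by 0.19 (adjusted p = 0.428).

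Among the nucleic acid sensors, Zbp1 (ENSMUSG00000027514, chromosome 2, 173206612 to 173218923), whose protein binds nucleic acids in the Z form and can start cell death, measured 36.0, 57.5 and 37.6 CPM in icaf, 11.71, 14.3 and 9.67 in m2cafneg, 11.8, 10.4 and 12.4 in m2cafpos and 9.95, 8.41 and 8.47 in vcaf. The icaf libraries did not overlap any other, and those of the other populations lay within 8.41 to 14.3 CPM. Zbp1 differed by 1.79 in log2(CPM + 1) (SE 0.16, adjusted p = 8.40e-06) from the m2caf mean. The RNA sensors Ifih1 (MDA5) and Dhx58 (LGP2) differed by 0.31 and 0.65, with adjusted p of 0.129 and 0.0575, the latter 0.0119 with the mouse as a block.

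The OAS genes encode enzymes that make the small messenger which activates RNase L, or relatives of them without that activity, and 3 of 5 passed the test. Oas1a (ENSMUSG00000052776, chromosome 5, 120896256 to 120907521) measured 28.5, 56.5 and 30.4 CPM in icaf, 12.4, 10.7 and 8.04 in m2cafneg, 7.73, 9.86 and 12.9 in m2cafpos and 11.9, 10.6 and 10.7 in vcaf. The icaf libraries lay above all others, with 1.76 in log2(CPM + 1) (SE 0.22, adjusted p = 8.77e-05) against the m2caf mean. Oas2 (ENSMUSG00000032690, chromosome 5, 120730333 to 120749853) measured 14.0, 17.5 and 14.3 CPM in icaf, 3.94, 8.17 and 5.41 in m2cafneg, 2.40, 4.91 and 5.97 in m2cafpos and 2.70, 1.52 and 2.67 in vcaf. Icaf was again above all other libraries, and m2cafneg and m2cafpos overlapped, with a difference of 1.46 (SE 0.25, adjusted p = 0.000982). Oasl2 was also higher, by 0.61, at an adjusted p of 0.0299 that rose to 0.157 without the icaf library of mouse 30. Its call was also lost without the m2cafneg library of mouse 31 or the m2cafpos library of mouse 27 or 30. Oas3 and Oasl1 were low, with group means of 0.28 to 1.31 CPM for Oas3 and 1.58 to 3.601 CPM for Oasl1, and neither passed.

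The IFIT proteins bind foreign-looking RNA ends and block its translation, and their genes sit together on chromosome 19. Ifit1 (ENSMUSG00000034459, chromosome 19, 34640871 to 34650009) measured 20.99, 69.2 and 26.6 CPM in icaf, 13.9, 12.7 and 14.2 in m2cafneg, 10.9, 11.0 and 10.4 in m2cafpos and 15.9, 8.11 and 7.45 in vcaf. The lowest icaf library, that of mouse 27, was above every other population's libraries, the highest of which was 15.9 CPM in vcaf. Ifit1 differed by 1.42 in log2(CPM + 1) (SE 0.31, adjusted p = 0.00522) from the m2caf mean and Ifit2 by 0.89 (adjusted p = 0.00387). Both calls were lost with the epithelial level in the fit (limma adjusted p = 0.0876 and 0.0746). Ifit3 (ENSMUSG00000074896, chromosome 19, 34583531 to 34588731) measured 16.8, 50.4 and 32.5 CPM in icaf, 18.8, 14.7 and 14.6 in m2cafneg, 13.9, 13.8 and 14.8 in m2cafpos and 13.1, 8.502 and 4.998 in vcaf. Here the icaf library of mouse 27 fell within the m2cafneg range, and the difference of 0.97 (adjusted p = 0.032) no longer passed without the icaf library of mouse 30 (adjusted p = 0.188) or 31, without either m2cafneg library of mouse 30 or 31, or without the m2cafpos library of mouse 27 or 31. Ifit3b, at 0.36, did not pass. Ifit3 and Ifit3b transcripts are 97.8% identical over 1700 aligned columns, and those of Oas1a and Oas1g 97.5% over 1860, so reads of these genes may have been assigned to the wrong copy.

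Cmpk2 and Ifitm3 completed the 8 largest differences. Cmpk2 (ENSMUSG00000020638, chromosome 12, 26469204 to 26479837), a mitochondrial nucleotide kinase next to Rsad2, measured 10.4, 23.4 and 13.7 CPM in icaf, 7.60, 9.20 and 6.21 in m2cafneg, 3.09, 1.08 and 3.69 in m2cafpos and 10.9, 11.0 and 7.53 in vcaf. Icaf overlapped vcaf, whose highest libraries were 10.9 and 11.0 CPM, and m2cafpos was the lowest population with no overlap. The difference of icaf from the m2caf mean was 1.56 in log2(CPM + 1) (SE 0.29, adjusted p = 0.00149). Ifitm3 (ENSMUSG00000025492, chromosome 7, 141009586 to 141010770), which blocks viral entry from endosomes, measured 1388, 1522 and 1480.4 CPM in icaf, 772, 861 and 618 in m2cafneg, 690.5, 584 and 585 in m2cafpos and 1226, 1105 and 1049.6 in vcaf. The populations were ordered icaf, vcaf, m2cafneg and m2cafpos by mean, icaf and vcaf overlapped neither each other nor the rest, and m2cafneg and m2cafpos overlapped each other. Ifitm3 was higher in icaf than in the m2caf mean by 1.11 in log2(CPM + 1) (SE 0.12, adjusted p = 2.43e-05). Bst2 (tetherin) was higher by 1.04, Xaf1 by 0.88 and Ifi35 by 0.62, all past the threshold, while Ifitm1 and Ifitm2 differed by -0.45 and 0.13 and did not pass. With the epithelial level in the fit the calls for Xaf1 and Ifi35 were lost (limma adjusted p = 0.0715 and 0.106).

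**Figure D3:**
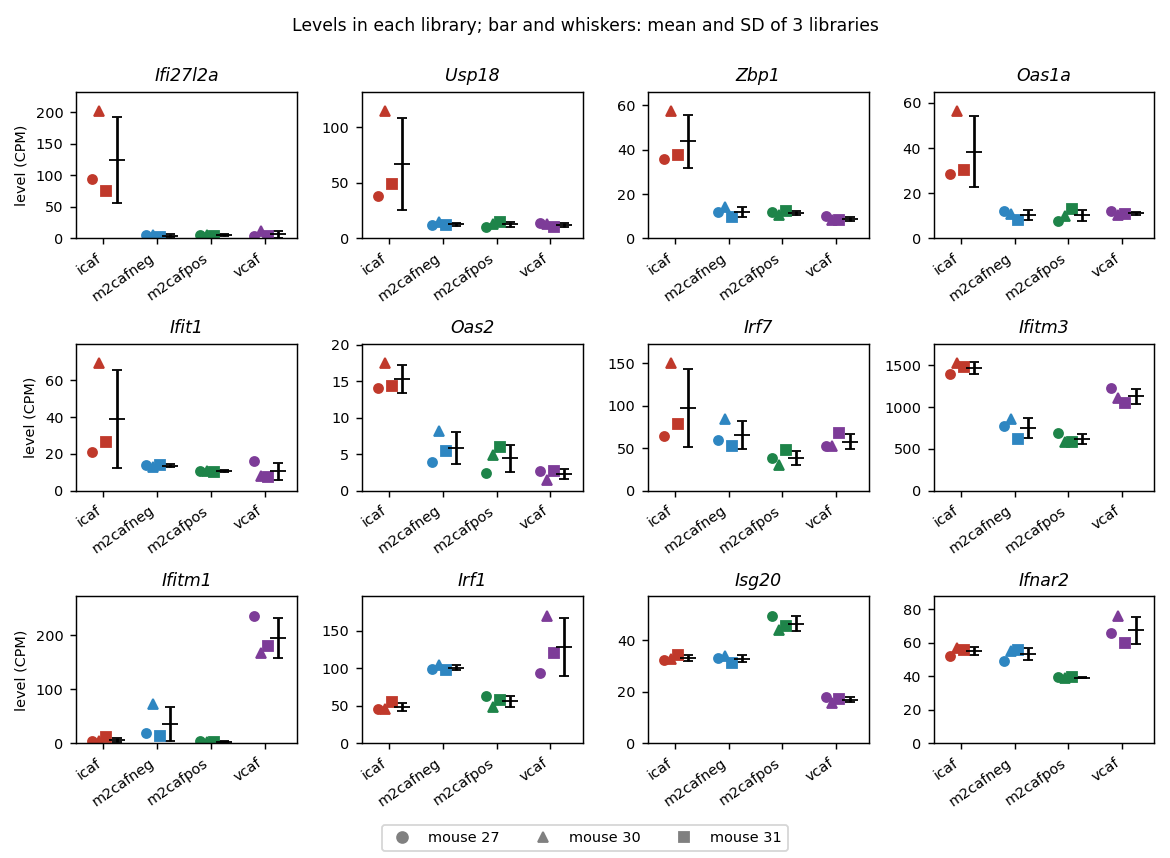
CPM in each library for 12 members (points by mouse, bars and whiskers for the mean and SD of 3 libraries). The icaf libraries lie above all others for Ifi27l2a, Usp18, Zbp1, Oas1a, Ifit1, Oas2 and Ifitm3, while Ifitm1 is highest in vcaf, Isg20 in m2cafpos and Ifnar2 lowest in m2cafpos.

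The transcription factors of the pathway differed by smaller amounts and not all in one direction. Irf7 (ENSMUSG00000025498, chromosome 7, 141262706 to 141266481), which amplifies type I interferon genes, measured 64.2, 150.1 and 79.1 CPM in icaf, 59.5, 84.6 and 52.6 in m2cafneg, 38.3, 30.3 and 47.7 in m2cafpos and 52.9, 53.3 and 67.6 in vcaf. The icaf library of mouse 30 was the highest of the 12 and those of the other icaf mice overlapped m2cafneg and vcaf. Irf7 was higher than in the m2caf mean by 0.87 in log2(CPM + 1) (SE 0.24, adjusted p = 0.0187), with an adjusted p of 0.106 without that library. Irf9 (ENSMUSG00000002325, chromosome 14, 55603571 to 55610030), the DNA-binding part of the ISRE complex, measured 48.9, 67.0 and 58.2 CPM in icaf, 41.1, 41.8 and 43.1 in m2cafneg, 29.0, 38.6 and 35.5 in m2cafpos and 43.2, 40.9 and 44.9 in vcaf. All icaf libraries were above the rest, and the difference was 0.59 in log2(CPM + 1) (SE 0.11, adjusted p = 0.00207). Stat2 (ENSMUSG00000040033, chromosome 10, 128270559 to 128292849), its partner, measured 46.3, 74.4 and 61.8 CPM in icaf, 35.9, 50.5 and 49.0 in m2cafneg, 32.6, 43.6 and 38.9 in m2cafpos and 37.8, 34.4 and 35.9 in vcaf. Icaf and m2cafneg overlapped, the difference was 0.52 (adjusted p = 0.025), and it did not pass without the icaf library of mouse 30 (adjusted p = 0.150), the icaf library of mouse 31 or the m2cafpos library of mouse 27. Irf9 overlaps Rnf31 on the same strand and Irf7 overlaps Phrf1 on the other, and whether strand was used in counting is not given in the sources used here, so reads shared by such pairs cannot be told apart.

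Irf1 went the other way. Irf1 (ENSMUSG00000018899, chromosome 11, 53770014 to 53778374), a factor raised by interferon gamma and by inflammatory signals, measured 45.2, 45.4 and 55.0 CPM in icaf, 99.2, 105 and 98.1 in m2cafneg, 62.3, 48.0 and 57.8 in m2cafpos and 93.4, 170.0 and 120.2 in vcaf. Icaf lay below m2cafneg and vcaf without overlap and overlapped m2cafpos. It was lower in icaf than in the m2caf mean by a log2 difference of -0.62 (SE 0.16, adjusted p = 0.0111), a call that was lost without the icaf library of mouse 27 or 30. Against m2cafneg alone the difference was -1.04 (adjusted p = 0.00113) and against vcaf -1.34 (adjusted p = 5.49e-05). Stress genes raised by tissue dissociation were low in the same populations: the summed level of 16 such genes was 13953 to 16238 CPM in icaf and 11237 to 12232 in m2cafpos, against 21183 to 30263 in m2cafneg and 20677 to 26403 in vcaf. Their part in the Irf1 result was not tested.

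Against each population in turn, icaf had more members higher than lower. Against m2cafpos, 24 members were higher (15% of all genes) and 1 lower (8.86%). The epithelial sums of these 2 populations overlapped, and with the epithelial level in the fit the count was again 24 (15.8% of all genes). Against m2cafneg, 15 members were higher (8.77% of all genes) and 2 lower (20.9%), and with the epithelial level in the fit 2 were higher (1.12% of all genes). Against vcaf, 22 were higher (13.9%) and 5 lower (46.1%), the latter being 3 without the icaf library of mouse 27 or the vcaf library of mouse 30, and with the epithelial level in the fit 3 were higher (5.71% of all genes). Epithelial genes were several times higher in m2cafneg and vcaf than in icaf, with no overlap of libraries, so the epithelial level and the population can hardly be told apart in these last 2 pairs. In all 3 pairs 13 members were higher in icaf, where 4.74% of all genes were: Bst2, Ifi27, Ifi27l2a, Ifit1, Ifitm3, Igtp, Irf9, Oas1a, Oas2, Rtp4, Usp18, Xaf1 and Zbp1. Without the icaf library of mouse 30 the count was 8 (3.28% of all genes), and with the epithelial level in the fit it was 1 (0.886% of all genes).

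Summed over the full lists, markers of blood cells were no higher in icaf than in m2cafneg or vcaf, but the single gene Il1r2 was. Lymphocyte genes (16 listed) summed to 2.45 to 5.82 CPM, each with a mean under 1 CPM, against 11.1 to 14.5 in m2cafneg, 3.39 to 6.45 in m2cafpos and 17.5 to 22.3 in vcaf. Ptprc, which encodes CD45, was at 0.55 to 0.851 CPM in icaf and 3.05 to 6.61 in vcaf. Siglech, which marks plasmacytoid dendritic cells, did not exceed 0.0393 CPM in icaf, and was at 0 in every m2cafpos library. Macrophage and dendritic cell sums were no higher in icaf than in m2cafneg or vcaf, with dendritic cell genes (12 listed, led by Tcf4, which other cells also express) at 200.003 to 226 CPM in icaf and 489 to 676 in m2cafneg. Of the 18 macrophage and monocyte genes only 3 had a mean under 1 CPM in icaf, and Cd14 had a mean of 88.3 CPM there. Their icaf sum, 159 to 327 CPM, overlapped the 237 to 331 CPM of m2cafpos. The neutrophil sum (12 listed) was 195 to 456 CPM in icaf and 630.2 to 1782 in m2cafneg, and in m2cafneg almost all of it was Ltf, which mammary epithelium also expresses. Without Ltf the other 11 genes summed to 93.0 to 166 CPM in icaf, 10.2 to 16.2 in m2cafneg, 19.9 to 26.0 in m2cafpos and 7.97 to 29.9 in vcaf, so this sum was highest in icaf. Nearly all of it there was Il1r2, a decoy receptor for interleukin 1, at 87.9 to 164 CPM in icaf and at most 6.62 CPM elsewhere. The 10 genes besides Ltf and Il1r2 (both set aside after their values were seen) summed to 2.14 to 5.11 CPM in icaf and 3.67 to 12.7 in m2cafneg, and the defining gene Ly6g did not exceed 0.0396 CPM in icaf.

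The icaf library of mouse 30 carried the highest levels of the programme. It was the highest of all 12 libraries for 27 of 41 members, against 6.7% of all genes. Set against the mean of the other icaf libraries, its median member was 0.57 higher in log2(CPM + 1), with 34 of 41 above 0 and 23 by more than 0.5, whereas the median of all tested genes was -0.03 and 4.48% of them exceeded 0.5. The ratios of its CPM to the mean of the other 2 icaf libraries were 2.91 for Ifit1, 2.65 for Usp18, 2.57 for Rsad2, 2.48 for Isg15 and 2.38 for Ifi27l2a, and at the low end 0.905 for Irf1, 0.884 for Ifitm2, 0.846 for Ifi27 and 0.64 for Ifitm1. The same comparison gave members' medians of -0.38 for the icaf library of mouse 27 and -0.14 for that of mouse 31. For each gene such deviations cancel out within a population, so the high library of mouse 30 itself lowers the values of the other icaf libraries. In the remaining libraries of mouse 30 members' medians were 0.08 in m2cafneg, -0.02 in m2cafpos and -0.04 in vcaf, beside -0.07, -0.02 and -0.01 for all genes. The m2cafneg library of mouse 30 was the highest of its 3 for 22 of 41 members (53.7%), where it was for 27.9% of all genes. The m2cafpos library of mouse 30 was highest for 15 members (36.6%, all genes 34.3%) and lowest for 19 (46.3%, all genes 37.8%). Its vcaf library was highest for 12 (29.3%, all genes 32.1%). Of the vcaf libraries that of mouse 27 was highest for 24 members (58.5%, all genes 34.0%). The epithelial sum of icaf of mouse 30, 2876 CPM, was the lowest of the icaf libraries, and its macrophage sum of 243 and lymphocyte sum of 3.42 CPM lay between those of mice 27 and 31.

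**Figure D4:**
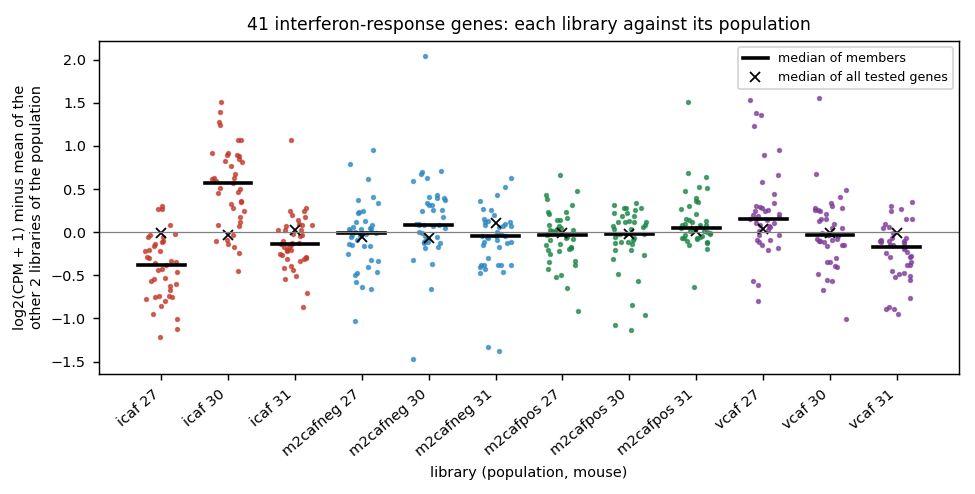
Log2(CPM + 1) of each member minus the mean of the other 2 libraries of the same population, by library (points), with the median of the 41 members (bar) and of all tested genes (cross). The icaf library of mouse 30 has a median of 0.57, and the other 11 lie between -0.38 and 0.15.

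Without that library, the members that no longer passed against the m2caf mean were Eif2ak2, Gbp2, Gbp3, Ifit3, Ifnar2, Irf7, Oasl2 and Stat2, besides Irf1. Those with the largest differences stayed past the threshold: 3.96 for Ifi27l2a (adjusted p = 0.000129), 1.69 for Usp18 (adjusted p = 8.97e-05), 1.58 for Zbp1 (adjusted p = 6.20e-05) and 1.46 for Oas1a (adjusted p = 0.000385). So did Oas2 at 1.37 (adjusted p = 0.00860), Cmpk2 at 1.26 (adjusted p = 0.0124), Ifitm3 at 1.08 (adjusted p = 0.000310) and Ifit1 at 0.91 (adjusted p = 0.0191). Among the mice as wholes, with population in the fit, 1 member differed (4.71% of all genes did). That member was Ifi27l2a (adjusted p = 0.0329), the next being Oasl1 (adjusted p = 0.107), and no member passed in limma once any 1 of the icaf libraries was left out, with 3, 4 and 6 members at an unadjusted p under 0.05 without mouse 27, 30 and 31. EdgeR on the recovered reads called 0 of the 41, with 9 at an unadjusted p under 0.05. The call was also lost without the m2cafneg or vcaf library of mouse 30 or 31 or the m2cafpos library of mouse 31, and removing vcaf of mouse 27 gave 2 members.

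The CD146+ population had a mixed pattern on the CPM scale, and mostly lower calls after rescaling. Of 41 members, 9 were higher in vcaf than in the mean of the other 3 populations (53.3% of all tested genes were) and 11 were lower (14.2% of all genes). The members' median was -0.12 where that of all genes was 0.38, so the median gene was itself higher in vcaf on the CPM scale. Scaling by the median of ratios in place of CPM moved the median of all genes to 0.02, changed the split of all genes to 23.6% higher and 24.6% lower, and left 3 members higher and 22 lower. The higher members were Gbp7, Ifi35, Ifi44, Ifitm1, Ifitm3, Ifnar2, Irf1, Rsad2 and Trim25, of which Ifi44, Ifitm1 and Irf1 stayed higher after rescaling, while Ifitm3 turned from 0.36 to -0.057. The count of lower members was 7 without the vcaf library of mouse 31. With the epithelial level in the fit 3 members were higher (Ifi35, Ifitm1 and Ifnar2) and 3 lower (Isg20, Oas2 and Zbp1). The calls for Ifi44 and Irf1 were then lost, at 0.28 and 0.66 (limma adjusted p = 0.633 and 0.068). Epithelial, endothelial and macrophage sums were high in vcaf, with endothelial genes at 1437 to 1725 CPM against 303 to 471 in icaf.

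**Figure D5:**
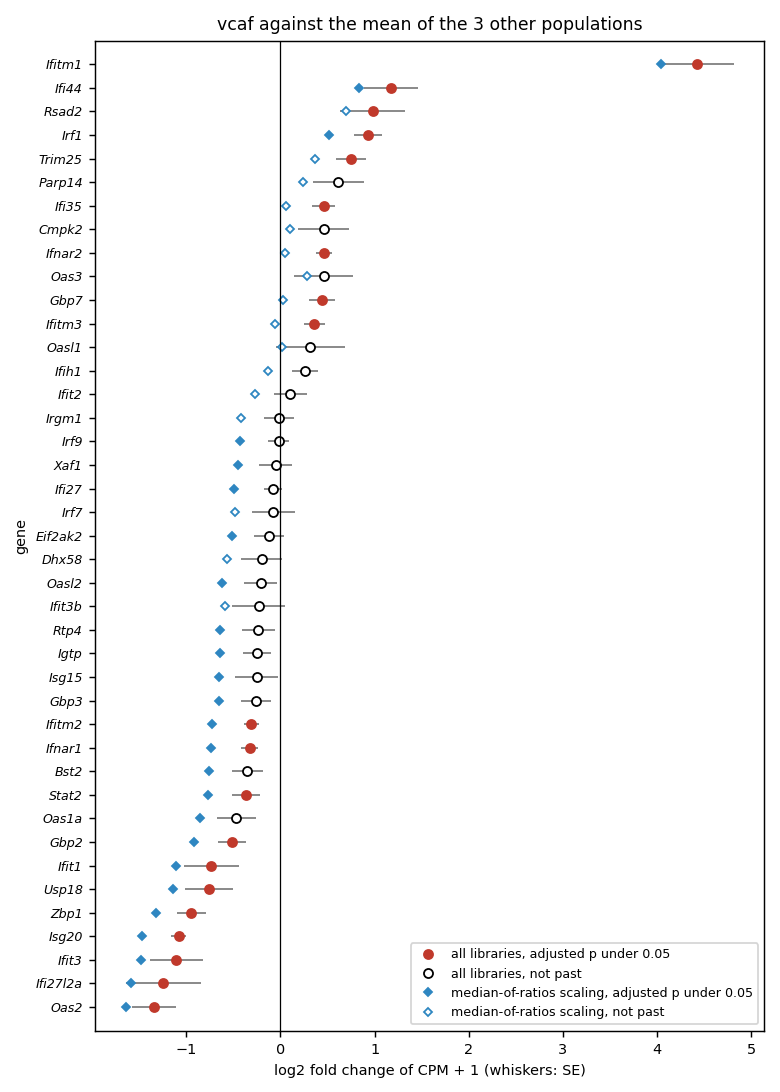
Log2 fold change of CPM + 1 of each member in vcaf over the mean of the other 3 populations, with whiskers for the standard error, on the CPM scale (circles) and after median-of-ratios scaling (diamonds), filled where the adjusted p is under 0.05. Ifitm1 stands apart at 4.43, and the diamonds lie left of their circles.

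Ifitm1 was the member most different in vcaf. Ifitm1 (ENSMUSG00000025491, chromosome 7, 140967221 to 140969825), which encodes a membrane protein that acts mainly at the cell surface, measured 4.48, 4.95 and 11.0 CPM in icaf, 19.8, 71.7 and 13.9 in m2cafneg, 3.32, 1.72 and 2.76 in m2cafpos and 236, 168 and 180.2 in vcaf. Vcaf lay above all other libraries, m2cafneg was next and lay above icaf, which lay above m2cafpos. The vcaf mean was 13.1 times the mean of the other 3, and the log2 difference was 4.43 (SE 0.39, adjusted p = 1.35e-06). Ifi44 (ENSMUSG00000028037, chromosome 3, 151730922 to 151749960), an interferon-induced cytoplasmic protein, measured 1.63, 2.06 and 2.04 CPM in icaf, 2.81, 4.14 and 3.93 in m2cafneg, 2.10, 1.19 and 6.42 in m2cafpos and 8.07, 6.03 and 7.84 in vcaf. The m2cafpos library of mouse 31 overlapped vcaf, and the difference was 1.17 (adjusted p = 0.00307). Rsad2 (ENSMUSG00000020641, chromosome 12, 26442746 to 26456452), the viperin gene, measured 0.874, 3.03 and 1.48 CPM in icaf, 0.392, 0.765 and 1.42 in m2cafneg, 1.82, 0.334 and 1.39 in m2cafpos and 6.95, 1.66 and 2.63 in vcaf. The vcaf library of mouse 27 was far above the others, the ranges overlapped, and the difference of 0.98 (adjusted p = 0.0231) did not pass without that library or after rescaling by the median of ratios or by TMM (trimmed mean of M values). Irf1, given above, was higher in vcaf by 0.93 in log2(CPM + 1) (SE 0.15, adjusted p = 0.000182), and by 0.52 (adjusted p = 0.0146) after median-of-ratios scaling.

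Lower in vcaf than in the mean of the other 3 populations were Gbp2, Ifi27l2a, Ifit1, Ifit3, Ifitm2, Ifnar1, Isg20, Oas2, Stat2, Usp18 and Zbp1. That mean includes icaf, and each of these was also lower in vcaf than in icaf. Against m2cafneg alone only Gbp2, Ifitm2, Isg20 and Oas2 were lower, and against m2cafpos alone only Ifnar1 and Isg20. The m2cafneg and m2cafpos means of Usp18 were each 1.03 times that of vcaf, and those of Ifi27l2a 0.72 and 0.79 times. Isg20 (ENSMUSG00000039236, chromosome 7, 78913424 to 78920396), an RNA exonuclease, measured 32.3, 32.6 and 34.4 CPM in icaf, 33.0, 34.1 and 31.3 in m2cafneg, 49.6, 43.9 and 45.7 in m2cafpos and 17.8, 15.7 and 17.4 in vcaf. The 3 vcaf libraries lay below all others and the 3 m2cafpos libraries above all others, with icaf and m2cafneg overlapping between them. Its difference in vcaf was -1.08 in log2(CPM + 1) (SE 0.08, adjusted p = 3.13e-07), and it was the 1 member lower in vcaf than in each other population (7.17% of all genes), a count that was 2 without any one of the libraries of mouse 27 and 8 after median-of-ratios scaling (11.3% of all genes). Oas2 differed in vcaf by -1.34 in log2(CPM + 1) (SE 0.24, adjusted p = 0.000403), Ifit3 by -1.11 (adjusted p = 0.00442) and Zbp1 by -0.94 (adjusted p = 0.000234), of which that for Ifit3 was lost with the epithelial level in the fit. Ifi27l2a differed by -1.24 (adjusted p = 0.0153), but the vcaf library of mouse 30, at 12.1 CPM, was above all m2caf libraries, and the call was lost without the vcaf library of mouse 27 or 31. The calls for Ifit1 and Stat2 (adjusted p = 0.0428 and 0.041) were each lost under 11 of 20 alternatives. For Ifit1 these included leaving out any m2cafneg or m2cafpos library, or the vcaf library of mouse 30 or 31. For Stat2 they included leaving out any vcaf library, or an icaf, m2cafneg or m2cafpos library of mouse 30 or 31. That for Usp18 was lost without the vcaf library of mouse 31.

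Compared directly, 4 members were higher in m2cafneg than in vcaf (11.3% of all genes) and 6 lower (26.6%), and 2 were higher in m2cafpos than in vcaf (12.4%) and 14 lower (55.5%). Of these counts, the 4 was 2 without the m2cafneg library of mouse 30, the 6 was 2 without the m2cafneg library of mouse 27 and 3 without vcaf of mouse 30, and the 2 was 1 without the m2cafpos library of mouse 30. Scaled by the median of ratios, m2cafneg had 8 higher (15.4% of all genes) and 1 lower (10%), with 27 of 41 members above 0 where 17 were on the CPM scale. In m2cafpos 11 were then higher (23.4%) and 4 lower (22.7%), with 26 members above 0 in place of 13, so the direction of both comparisons with vcaf depends on the scaling. Higher in vcaf than in each other population were Ifitm1, Ifnar2 and Trim25 (21.4% of all genes). After either rescaling 1 was left (7.1% of all genes with TMM and 7.12% with median of ratios). The count was also 1 without icaf or m2cafneg of mouse 27 and without vcaf of mouse 30.

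The NCAM+ population had lower levels than the NCAM- one for a few members. Of 41 members, 7 were lower in m2cafpos than in m2cafneg (22.6% of all genes were) and 1, Isg20, was higher (3.51% of all genes). The members' median of -0.27 was close to the -0.23 of all genes. After median-of-ratios scaling the median of all genes was 0.02, 8.79% of genes were higher and 8.28% lower, and 2 members were higher and 2 lower. With the mouse as a block 11 members were lower, and with the epithelial level in the fit none passed in either direction in limma (at an unadjusted p under 0.05 there were 5 lower and 1 higher, and edgeR without that level called 1 lower and 2 higher). The share of members lower was not above the background.

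The largest of these differences were in Ifitm1, at -2.999 in log2(CPM + 1) (SE 0.48, adjusted p = 0.00221), and Cmpk2, at -1.33 in log2(CPM + 1) (SE 0.33, adjusted p = 0.0133). For Ifitm1 the m2cafneg library of mouse 30, at 71.7 CPM, was the highest of its group. Irf1 differed by -0.84 (adjusted p = 0.00726), with no overlap between m2cafneg and m2cafpos, and by -0.55 (adjusted p = 0.0627) after median-of-ratios scaling. Gbp2 (ENSMUSG00000028270, chromosome 3, 142620602 to 142638008), a guanylate-binding GTPase that attacks the vacuoles of intracellular microbes, measured 64.9, 93.9 and 82.8 CPM in icaf, 59.99, 90.6 and 56.3 in m2cafneg, 37.8, 44.9 and 39.0 in m2cafpos and 41.2, 44.9 and 39.5 in vcaf. M2cafpos lay below m2cafneg and icaf and overlapped vcaf, with -0.72 in log2(CPM + 1) (SE 0.18, adjusted p = 0.0124) against m2cafneg. After median-of-ratios scaling that was -0.44 (adjusted p = 0.135), and the calls for Irf1 and Gbp2 were lost with TMM and in edgeR too. Rtp4 (ENSMUSG00000033355, chromosome 16, 23520291 to 23614222), a receptor-transporter protein that also holds down flavivirus replication, measured 34.1, 70.6 and 55.9 CPM in icaf, 28.1, 33.6 and 37.3 in m2cafneg, 19.0, 21.003 and 22.1 in m2cafpos and 31.2, 27.2 and 24.8 in vcaf. Its m2cafpos libraries were the lowest of the 12, at a difference of -0.64 (adjusted p = 0.0436), and icaf and m2cafneg overlapped. Ifih1 (ENSMUSG00000026896, chromosome 2, 62595798 to 62646255), the double-stranded RNA sensor, measured 17.9, 26.3 and 19.8 CPM in icaf, 21.3, 19.0 and 19.8 in m2cafneg, 13.2, 15.4 and 13.7 in m2cafpos and 25.8, 18.0 and 22.6 in vcaf. M2cafpos again lay below all other libraries, with a difference from m2cafneg of -0.48 (adjusted p = 0.0484). The calls for Rtp4 and Ifih1 were each lost under 14 of 20 alternatives, among them either rescaling and leaving out any m2cafpos library. They were also lost without the m2cafneg library of mouse 30 or 31 and the icaf library of mouse 31, that of Rtp4 without vcaf of mouse 27 or 30, and that of Ifih1 without the m2cafneg library of mouse 27 or the vcaf library of mouse 31. Isg20 was higher in m2cafpos by 0.49 in log2(CPM + 1) (SE 0.10, adjusted p = 0.00597), and was the 1 member higher there than in each other population (1.71% of all genes). Cmpk2, Ifih1 and Ifnar2 were lower in m2cafpos than in each other population (5.09% of all genes). After either rescaling 1 was left (1.16% of all genes with TMM and 0.996% with median of ratios).

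The receptor chains were present in every population. Ifnar1 (ENSMUSG00000022967, chromosome 16, 91485238 to 91507441) measured 110.0, 92.7 and 89.5 CPM in icaf, 89.5, 79.9 and 84.5 in m2cafneg, 84.3, 101 and 92.6 in m2cafpos and 77.7, 71.1 and 68.9 in vcaf. Vcaf lay below all other libraries, which overlapped each other, with a difference of -0.33 in log2(CPM + 1) (SE 0.09, adjusted p = 0.00565). After median-of-ratios scaling it was -0.74 (adjusted p = 1.72e-05), m2cafpos was then above m2cafneg by 0.42 (adjusted p = 0.0195), and the vcaf call was lost with the epithelial level in the fit. Ifnar2 (ENSMUSG00000022971, chromosome 16, 91372783 to 91405589), the chain that binds interferon most tightly, measured 52.4, 56.9 and 55.8 CPM in icaf, 49.1, 54.9 and 55.5 in m2cafneg, 39.3, 38.7 and 39.5 in m2cafpos and 65.9, 76.3 and 59.96 in vcaf. Vcaf lay above and m2cafpos below all other libraries, while icaf and m2cafneg overlapped. Ifnar2 was lower in m2cafpos than in m2cafneg, at -0.43 in log2(CPM + 1) (SE 0.10, adjusted p = 0.0119), and higher in vcaf by 0.46 in log2(CPM + 1) (SE 0.08, adjusted p = 0.000532), but neither passed after either rescaling. The difference between icaf and the m2caf mean, 0.26 (adjusted p = 0.0465), was lost under 14 of 20 alternatives, including the removal of any icaf, m2cafneg or m2cafpos library or of the vcaf library of mouse 27.

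The GTPases, which act against microbes in vacuoles, moved in small steps. Against the m2caf mean Igtp was higher in icaf by 0.91 (adjusted p = 0.00108), Gbp2 by 0.60 and Gbp3 by 0.57, and the latter calls were lost without the icaf library of mouse 30. Irgm1 and Gbp7 differed by 0.24 and 0.10 and did not pass. Group means of Igtp were 31.1 CPM in icaf and 14.2 to 17.7 CPM elsewhere. Igtp overlaps Irgm2 on the same strand, and Gbp3 and Gbp7 transcripts are 78.4% identical over 1888 aligned columns.

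The wider pathway was read from lists of other genes. Of 21 interferon genes, none reached the filter of 1 CPM in 3 libraries and none exceeded 0.314 CPM in any library, that value being Ifnk in 1 vcaf library. Ifng was at 0 in all 12 libraries, which allows up to 0.0542 to 0.0683 CPM (3 reads), and Ifnb1 reached at most 0.04 CPM. Of 13 other receptor and JAK-STAT genes, 2 were higher in icaf than in the m2caf mean (12.1% of all tested genes were), Il10rb by 1.12 and the kinase gene Jak1 by 0.79, and the single lower one (14.2% of all genes) was Tyk2 at -0.38. In vcaf 10 of the 13 were higher (53.3% of all genes) and 2 lower (14.2%), which became 3 and 3 after median-of-ratios scaling (23.6% and 24.6%). Among the lower was Ifngr1, a chain of the interferon gamma receptor, at -1.39 (adjusted p = 2.75e-07) and -1.80 after that scaling. Its partner chain gene Ifngr2 was higher there by 0.46, near the 0.38 of the median gene, and by 0.05 (adjusted p = 0.712) after scaling. In m2cafpos 8 of the 13 were lower than in m2cafneg (22.6% of all genes) and 4 after scaling (8.28%), with Ifngr1 at -0.90 (adjusted p = 0.00137) and -0.61 (adjusted p = 0.0114).

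Of 15 tested genes of sensing and induction, 5 were higher (12.1% of all genes) and 4 lower (14.2%) in icaf than in the m2caf mean, so this list was split. Irf8, a factor of myeloid cells, differed by -0.92 (adjusted p = 0.00653). In vcaf 9 were higher and 2 lower, a share of higher genes near the 53.3% of all genes, and the counts became 3 and 6 once scaled by the median of ratios. Irf8 was higher in vcaf by 2.84 and Aim2 by 1.25, and after scaling by 2.47 and 1.06. Irf3 at 0.61 and Myd88 at 0.56 came to 0.20 and 0.14 (adjusted p = 0.0369 and 0.187). In m2cafpos 6 were lower than in m2cafneg (22.6% of all genes), and 1 after scaling (8.28%).

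Other interferon-stimulated genes were also more often higher than lower in icaf. Of 57 tested, 27 were higher (12.1% of all genes) and 2 lower (14.2%) than in the m2caf mean, with a median of 0.52 where that of all genes was -0.01. The largest calls were among the Ifi200 genes, whose proteins bind DNA: Ifi205 at 2.48, Ifi211 at 2.02 and Ifi204 at 1.504. Mean levels of Ifi205 were 682 CPM in icaf, 166 in m2cafneg, 104 in m2cafpos and 4.67 in vcaf. In vcaf 18 of the 57 were higher (53.3% of all genes) and 16 lower (14.2%), and these became 8 (23.6%) and 22 (24.6%) once scaled by the median of ratios. The lower ones included Ifi205 at -5.29, Ifi204 at -3.17, Ifi211 at -3.08 and Ifi207 at -2.85. In m2cafpos 2 were higher (3.51% of all genes) and 9 lower (22.6%) than in m2cafneg, and 4 and 3 after scaling (8.79% and 8.28%).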

How the data were processed

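RNA was measured by sequencing in 12 libraries, 4 sorted populations from each of 3 mice. The authors deposited 1 table of CPM, read counts scaled to 1000000 per library. Reads were handled with bcl2fastq and DRAGEN on the genome build mm10, per the submitters' processing notes, while for versions, annotation, strandedness and reads that match several places the entry is: not given in the sources used here. The table has 55774 lines, of which 287 repeat an identifier with the same values, leaving 55487 genes. All values (100%) were whole multiples of 1 read within 0.001 reads, so reads were recovered, 43898839 to 55363203 per library. CPM is relative to all reads, so a population with a few very abundant genes has lower values elsewhere.

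Groups and mice were taken from the sample titles. Genes were kept where 3 or more libraries had 1 CPM or more, which left 15456 with all 41 members among them, and these were fitted with limma 3.58.1 (R 4.3.3) on log2(CPM + 1), with all libraries and no block, trend, 8 residual degrees of freedom and two-sided tests. Fold changes on this scale understate those of low genes. Benjamini-Hochberg adjustment was over all 15456 genes and calls used 0.05. Alternatives were TMM and median-of-ratios scaling (edgeR 4.0.16, DESeq2 1.42.0), pseudocounts of 0.25 and 5 CPM, no filter and edgeR's quasi-likelihood test on recovered reads. Further ones were the mouse as a block, an epithelial covariate and each library left out. That covariate was the mean log2(CPM + 1) of the listed epithelial genes, not their summed CPM. Scripts were tested on simulated data.

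Same-numbered libraries come from the same mouse, which is the source of the pairing. Their deviations from group means correlated over all genes with a median r of 0.293 (0.0843 to 0.452, 18 pairs of libraries). The median between mice, -0.149, is no separate evidence, since deviations cancel out within a population. Over the members alone the same-mouse median was 0.182 (-0.096 to 0.344), and pairs of different mice reached 0.418. Members, lists and comparisons were chosen with earlier results of these data known. Values in every library are given for Ifnar1, Ifnar2, Irf1, Irf7, Irf9, Stat2 and the 8 members with the largest called difference in each of 3 main comparisons, and for Isg15, which was added after its values were seen. From other lists, ligand and receptor genes and up to 4 genes with the smallest adjusted p are named. Tyk2 was named after its values were seen, and 1 gene of the lists is not reported here. Positions are from GENCODE M21 (GRCm38) and promoters from RefSeq.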

Additional observations from a re-analysis of the deposited data

How the results depend on the processing

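Of 53 calls of single members in the 3 main comparisons, 15 passed under all 20 alternatives listed above, and of 1060 values 897 kept direction and call, 160 kept direction only and 3 reversed. The reversals are of Ifitm3 in vcaf, at -0.049 with TMM, -0.057 with median-of-ratios scaling and -0.055 in edgeR. The TMM and median-of-ratios settings change only the scaling of CPM, while edgeR also changes the model. Causes of the differences below were not tested. In vcaf against the rest, 3 members were higher with TMM, median of ratios or edgeR, and 21, 22 and 21 lower. In m2cafpos against m2cafneg, 2 were higher in each, and 2, 2 and 1 lower. Under TMM, median of ratios and edgeR, icaf against vcaf had 3 lower, m2cafneg against vcaf 8 higher and 1 lower, and m2cafpos against vcaf 10, 11 and 10 higher and 4 lower. Lower in m2cafpos than in each other were 1, 1 and 0 (1.16%, 0.996% and 1.31% of all genes). Higher in vcaf than in each other was 1 in each (7.1%, 7.12% and 6.13% of all genes). Lower in vcaf than in each other were 7, 8 and 6 (11.4%, 11.3% and 11.8% of all genes). EdgeR called 1838 genes higher and 2070 lower in icaf against the m2caf mean, where limma called 1872 and 2191. Without a filter 8 members were higher in icaf than in each other (1.89% of all genes) and 0 differed among mice (7 at an unadjusted p under 0.05), as in edgeR. With a pseudocount of 0.25 CPM, 2 were lower in vcaf than in each other (7.61% of all genes).

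With the mouse as a replicate block 11 members were lower in m2cafpos than in m2cafneg and 2 lower in vcaf than in each other (8.02% of all genes). The pairing took away no call of a single member. It added calls for Isg15 and Dhx58 in icaf, which made 26 higher than the m2caf mean in place of 24, for Parp14 in vcaf, and for Dhx58, Gbp3, Irf7 and Trim25 in m2cafpos. With the epithelial covariate, vcaf had 3 higher and 3 lower, icaf 11 higher and 0 lower (1 lower at an unadjusted p under 0.05) against the m2caf mean, m2cafpos against m2cafneg 0 and 0, icaf against m2cafneg 2 and 0 (1 lower unadjusted), icaf against vcaf 3 and 1, and m2cafpos against vcaf 1 and 4. By the rule of each other population the covariate left 1 higher in icaf (0.886% of all genes) and 1 higher in vcaf (7.87%). In m2cafpos it left 0 higher and 0 lower (0.408% and 0.595% of all genes), and 0 differed among mice (8 unadjusted).

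Both remaining settings were chosen after seeing the data. Block and epithelial covariate together gave 7 higher and 0 lower in icaf against the m2caf mean, 0 and 2 in vcaf against the rest, 0 and 0 in m2cafpos against m2cafneg, 1 and 0 in icaf against m2cafneg, 2 and 0 in icaf against vcaf, 3 lower in m2cafneg against vcaf, and 1 and 0 in m2cafpos against vcaf. Against each other population, 1 member was higher in icaf (0.0129% of all genes) and 0 were higher or lower in m2cafpos or vcaf. Of all genes 1.55% were then higher and 1.2% lower in vcaf, and 0.00647% each way in m2cafpos. Under it Irf1 reversed to -0.10 in vcaf, 0.044 in icaf and 0.32 in m2cafpos, Rsad2 to -0.061, Ifnar1 to 0.23 and Ifitm3 to -0.080 in vcaf, and Cmpk2 to 1.12 in m2cafpos, none past the threshold. Without mouse 30, 3 were lower in m2cafpos than in m2cafneg, 1 lower in icaf than in m2cafneg, 14 higher in icaf than in vcaf, and 2 in m2cafneg and 1 in m2cafpos higher than in vcaf. Then 8 were higher in icaf than in each other (3.76% of all genes), 0 lower in m2cafpos (1.95%) and 1 higher in vcaf (10.1%). None differed among mice (5 unadjusted).

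Leaving out 1 library at a time gave 0 to 2 members differing among mice, 7 to 14 lower in vcaf than the rest, 16 to 24 higher and 0 to 1 lower in icaf than the m2caf mean, 3 to 6 lower in icaf than in vcaf, 2 to 5 higher and 2 to 7 lower in m2cafneg than in vcaf, and 1 to 3 higher in m2cafpos than in vcaf. By the rule of each other population the counts were 8 to 15 higher in icaf, 1 to 4 higher in vcaf and 1 to 2 lower in vcaf. Depth limits Oas3 most, which had no read in the m2cafneg library of mouse 31.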
